A study of Mus musculus with 2 samples.

Results

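The cells described here are 164 dendritic-type cells of inflamed mouse ear skin, 2.304% of the 7118 cells that carried 1 sample hashtag. They were picked by expression: at least 5000 CPM (reads of a gene scaled to 1000000 reads of the cell) for the MHC class II genes H2-Aa, H2-Ab1, H2-Eb1 and Cd74 together, and at least 100 CPM for Flt3, Ccr7 and Il4i1 together. Cells with 1000 CPM or more of C1qa, C1qb and C1qc, with 200 CPM or more of the B cell gene Cd79a, or with 3000 CPM or more of the collagen gene Col1a1 were left out. In all, 168 cells fit these limits, and 4 of them had no usable hashtag, 3 because they carried several. The levels of these 12 genes are therefore a description of how the cells were chosen, and no test of them is reported. The fits over all genes did not set them aside.

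Male BALB/c wild-type (WT) mice and mice with a whole-body deletion of the chemokine receptor gene Ccr2 (Ccr2-/-), 7 to 12 weeks old, were given 300 µg of anti-TNP IgE by vein. The next day, 10 µg of ovalbumin coupled to the hapten TNP was injected into the ear skin, which starts IgE-mediated chronic allergic inflammation (IgE-CAI), so all groups were sensitised and challenged and none was untreated. Ears were taken at 3 and 5 days after challenge, and dissociated cells of each genotype and day were marked with 1 of 4 hashtag antibodies and sequenced together in 1 library. Of the 164 cells, the WT pools held 51 on day 3 and 44 on day 5, and the Ccr2-/- pools 24 and 45. Each genotype and day is 1 pool and the number of mice behind a pool is not stated, so p-values measure only the spread between these pools. Intervals are on numbers of cells and cover counting error only, not the spread between mice.

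Dendritic cells take up antigen in tissue, load it on MHC class II and carry it to lymph nodes for T cells. Conventional dendritic cells depend on the growth factor receptor FLT3 and fall into a type 1 lineage (cDC1), which cross-presents antigen and bears XCR1 and CLEC9A, and a type 2 lineage (cDC2), which in skin often bears CD209A and the lectin MGL2. Cells of both lineages, when they mature, switch on CCR7, the receptor that guides them into lymphatics, together with the actin-bundling protein fascin (Fscn1) and the amino acid oxidase IL4I1. Plasmacytoid dendritic cells, which bear Siglec-H, are specialised for interferon, and Langerhans cells are the CD207+ antigen-presenting cells of the epidermis.

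The choice rested mostly on Flt3. At 100 CPM, 121 of the 164 cells held Flt3, 68 held Il4i1 and 26 held Ccr7. Flt3 alone was found in 85 cells, Il4i1 alone in 29 and Ccr7 alone in 3, while 12 cells held all 3 genes and 4 reached the limit only by the sum. The median sum of the 3 genes was 473 CPM (range 103 to 5195), and the median MHC class II sum was 41752 CPM (range 5112 to 162642). C1q had a median of 0 CPM. The cells nearest the limit of 100 CPM had 103 and 106 CPM inside it and 99.8 and 93.4 CPM outside it. Near the MHC class II limit the sums were 5112 CPM inside and 4917 CPM outside, and next to the C1q limit they were 809 CPM inside and 1098 CPM outside. Few cells thus lay close to a limit: 7 exceeded the limit on the 3 genes by up to 20% and 4 missed it by that much. Values of the 4 pools are given here and throughout with WT before Ccr2-/- and, within each genotype, the earlier day before the later. Flt3 stood at 291, 380, 207 and 302 CPM in these pools, Ccr7 at 110, 118, 126 and 78.6 CPM and Il4i1 at 497, 197, 767 and 320 CPM.

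Depth was high. A cell had a median of 53764 reads and 3544 genes, against a median of 33169.5 reads in the other cells, and 7 of the 164 cells had fewer than 10000 reads. Summed over the cells of a pool, the reads came to 2888915, 2958423, 1570878 and 2583591, and levels by pool below are CPM of these sums, so that a pool of few cells can be led by 1 cell.

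The dendritic label was checked against genes outside the choice. The most similar cells in the tissue were the 365 MHC class II-high cells that met every other limit but stayed under 100 CPM of Flt3, Ccr7 and Il4i1. Fscn1, named with the label as a marker, stood at 155 CPM against 2.79 CPM in those cells. Only 37 of the 164 cells had a read of Fscn1, so it marked a part of them. Fibroblast-type cells with 3000 CPM or more of Col1a1 had Fscn1 at 111 CPM. H2-DMb2, a subunit of the DM peptide-loading complex, reached 364, 241, 409 and 359 CPM in the 4 pools. Zbtb46, a transcription factor of conventional dendritic cells, stood at 40.8, 23.7, 44.6 and 50.3 CPM, and 34 of the 164 cells had a read of it. Whole marker lists were mixed. The 8 dendritic lineage genes summed to 1589 CPM against 1367 CPM in the MHC class II-high cells. In the Ccr2-/- day 3 pool they summed to 1187 against 1195 CPM. The cDC2 list (3617 against 4969 CPM) and the class II-loading list with H2-DMb2 (5395 against 6218 CPM) were lower in the dendritic-type cells. The cDC1 list (3844 against 1086 CPM) and the maturation list (3380 against 1529 CPM) were higher. Among the genes with at least 50 CPM in each pool and a ratio above 1 in each pool, those with the largest ratio of the dendritic-type over the MHC class II-high cells, computed with 1 CPM added to each level, included genes of maturation and of cDC1. Maturation was represented by Fscn1 (ratio 41.1) and the calcium channel subunit Cacnb3 (119 against 4.16 CPM, ratio 23.2), and cDC1 by Xcr1 (160 against 18.4 CPM, 8.28), the cross-presentation gene Wdfy4 (333 against 53.5 CPM, 6.14) and the lineage factor Irf8 (1046 against 247 CPM, 4.22). The phosphatidylserine receptor gene Timd4 (318 against 29.7 CPM), the inhibitory receptor gene Btla (165 against 20.9 CPM), the transcription factor gene Bcl11a (183 against 39.3 CPM) and the IL-7 receptor gene Il7r (197 against 45.2 CPM) were also among these 20 genes. As both sets of cells were cut by expression, these ratios describe them and were not tested.

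The cells were also checked for genes of other lineages. The 12 monocyte-macrophage genes summed to 2591, 3125, 1416 and 1323 CPM, below the 7000 to 13076 CPM of the MHC class II-high cells. In the remaining cells of the tissue they summed to 5145, 5827, 1129 and 1222 CPM, so that in the Ccr2-/- pools the dendritic-type cells were above the rest. Lyz2 stood at 706, 463, 205 and 281 CPM. Fibroblast genes summed to 783 to 2013 CPM against 36565 to 48870 CPM in the remaining cells of the tissue. T cell genes summed to 30.5 to 123 CPM, with Trac at 0 in all 164 cells, and B cell genes to 124 to 263 CPM, against 128 to 193 CPM in the remaining cells, with Pax5 and Ighd at 0. Natural killer and innate lymphoid genes reached 494 and 1523 CPM in the day 3 pools and 29.1 and 26.3 CPM in the day 5 pools, and that difference sat in very few cells, described below. In the Ccr2-/- day 3 pool, T cell genes (123 against 98.6 CPM) and natural killer and innate lymphoid genes (1523 against 933 CPM) were above the remaining cells. In the other pools both lists were below them. Eosinophil genes summed to 88.3, 69.0, 158 and 12.8 CPM, against 73.4, 38.1, 24.3 and 27.4 CPM in the remaining cells. Neutrophil genes summed to 146 to 288 CPM, and basophil and mast cell genes to 42.6 to 76.1 CPM. Keratinocyte genes summed to 10.5 to 29.4 CPM, and endothelial and mural genes to 57.8 to 297 CPM. These last lists were below the remaining cells in each pool.

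Clustered among themselves, with the 12 chosen-on genes set aside, the cells fell into 4 sub-clusters that could each be named from marker lists. The sub-cluster of 54 cells led by Fscn1, Samsn1, Cyp7b1, Ccl22 and Cacnb3 was named mature CCR7-type DC-like, as 16 of 29 markers passed, but 19 of its cells had a read of Ccr7, 26 a read of Fscn1, and 12 were in the gate on both genes described below. A second, of 48 cells, was cDC1-like: 38 of its cells had a read of Xcr1, 45 of Irf8 and 45 of Wdfy4, and Naaa, a lysosomal amidase abundant in cDC1, stood at 3558 CPM against 53.6 CPM in the mature DC-like cells. The smallest, 13 cells led by Klk1 and Siglech, was plasmacytoid DC-like, with Siglech at 2224 CPM, Tcf4, the transcription factor of that lineage, at 1981 CPM, and no read of Il4i1 or Naaa. The remaining 49 cells went in part against the dendritic label. Their leading genes were Retnla, Rnase2a, Mmp12, Ccl8, Arg1 and Clec4a3, and 8 of 12 monocyte-macrophage markers passed, as did 7 of 12 cDC2 markers, so they were named monocyte-macrophage-like by the stronger list. Of these cells, 27 had a read of Flt3 and 26 a read of Il4i1, the genes that had brought them in. In those cells Mrc1, the mannose receptor, stood at 1442 CPM and Fscn1 at 1.69 CPM. The MHC class II-loading gene H2-DMb2 stood there at 327 CPM, close to the 286 CPM of the cDC1-like cells. In the plasmacytoid DC-like cells H2-DMb2 was at 2.33 CPM. The genes named here defined the sub-clusters and are a description. The names depended on the resolution. A finer clustering gave 8 sub-clusters, and 13 of the 54 mature DC-like cells kept that name there while the other 41 fell into 2 sub-clusters that could not be named. Of the 49 monocyte-macrophage-like cells, 29 kept their name, 18 formed a sub-cluster named cDC2-like and 2 were in an unnamed one.

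**Figure D1:**
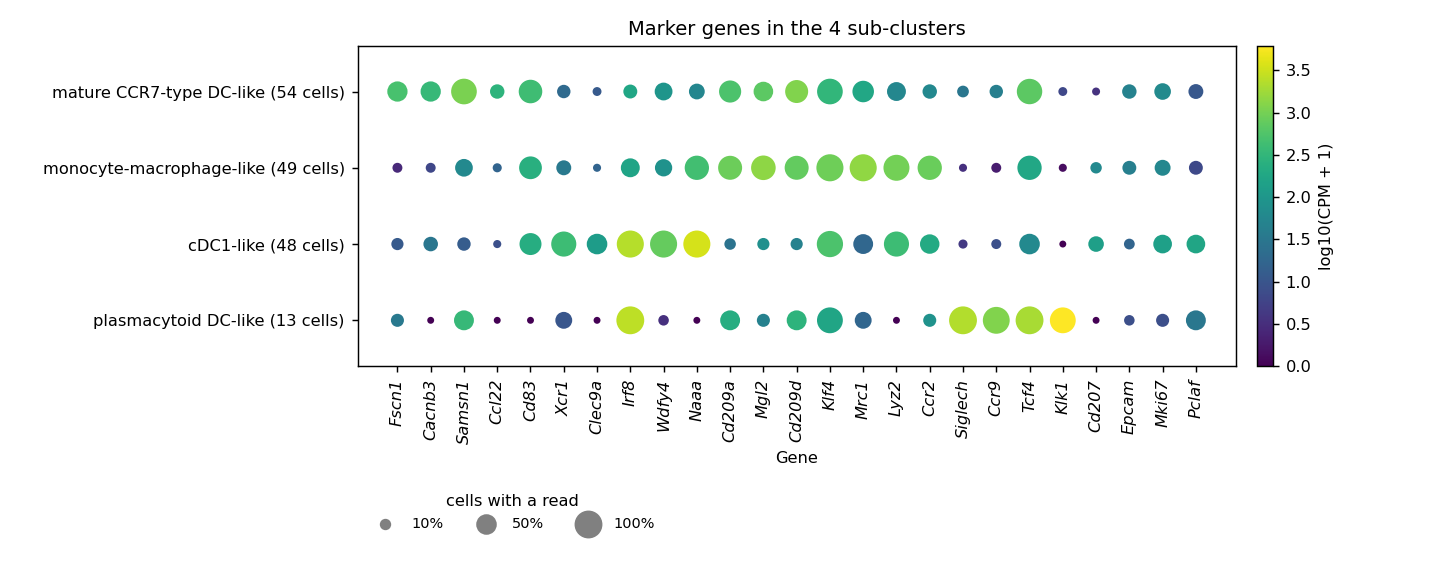
Marker genes in the 4 sub-clusters of the 164 cells. Rows are sub-clusters and columns are genes, colour gives log10(CPM + 1) of the summed reads and dot size the share of cells with a read, and each row has its own block of markers, with the monocyte-macrophage-like row sharing Cd209a and Mgl2 with the mature row.

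The cells were also split by single markers at 100 CPM. The cDC2 gate (Cd209a and Mgl2 together at 100 CPM or more) held 85 of the 164 cells, the cDC1 gate (Xcr1 and Clec9a) 34, the Langerhans gate (Cd207 and Epcam) 31, the plasmacytoid gate (Siglech) 17, and the mature gate, which asked for Ccr7 and Fscn1 each at 100 CPM, 14. In the other cells of the tissue, the same gates held 7.58%, 2.63%, 1.60%, 1.12% and 0.129% of cells. The gates overlapped: 27 cells were in none, 96 in 1 and 41 in at least 2, most often cDC2 with Langerhans (17 cells) and cDC1 with Langerhans (12 cells). All 13 plasmacytoid DC-like cells were in the Siglech gate, 31 of the 34 cells of the cDC1 gate were in the cDC1-like sub-cluster, and 12 of the 14 cells of the mature gate were in the mature sub-cluster. The cDC2 gate did not separate dendritic from monocyte-type cells, as it held 35 of the 54 mature DC-like and 39 of the 49 monocyte-macrophage-like cells. The Langerhans gate was spread as well, with 11 cDC1-like, 10 mature DC-like and 9 monocyte-macrophage-like cells, and no sub-cluster was named after Langerhans cells. Cd207 stood at 134 CPM in the cDC1-like cells against 28.3 CPM in the others, so that gate does not identify Langerhans cells.

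Ccr2, the deleted gene, was read as a check of the pool labels before any comparison. It had 1206, 2136, 76 and 27 reads, or 417, 722, 48.4 and 10.5 CPM, and 21 of 51, 31 of 44, 1 of 24 and 1 of 45 cells reached 100 CPM. Both Ccr2-/- pools were far below both WT pools, and 1 cell held 86.8% of the reads of the Ccr2-/- day 3 pool. Col1a1-high fibroblast-type cells, which should lack the gene, had 7.88 CPM at a median of 89248 reads. The log2 fold change of Ccr2-/- over WT was -4.50 ± 0.75 (SE), and edgeR's quasi-likelihood test with Benjamini-Hochberg adjustment over all genes gave an adjusted p of 0.972, so the gene did not pass.

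The comparison of cell shares asked how the cells depended on CCR2, the receptor by which classical monocytes leave the blood. They made up 3.31% of WT day 3 cells (exact 95% interval 2.47 to 4.32), 4.24% of WT day 5 cells (3.10 to 5.65), 1.10% of Ccr2-/- day 3 cells (0.703 to 1.63) and 1.92% of Ccr2-/- day 5 cells (1.40 to 2.56). Both Ccr2-/- pools lay below both WT pools, by 3.02 times on day 3 and 2.21 times on day 5. The mean share was 3.77% in WT and 1.51% in Ccr2-/- pools, and the difference of -2.27 points had an exact two-sided permutation p of 0.333, the smallest that 2 pools against 2 allow. Among cells with Ptprc (CD45) at 20 CPM or more, the shares were 6.10%, 6.54%, 2.55% and 3.51%. Being shares, they move with every other cell type in a pool, and fewer dendritic cells cannot be told apart from more of the others.

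For the other antigen-presenting cells the ratios between genotypes were larger. The MHC class II-high cells without the 3 genes made up 10.4%, 10.0%, 1.83% and 2.56% of the pools, 5.72 and 3.92 times less in Ccr2-/- mice, and the C1q-high macrophage-type cells 4.99%, 9.74%, 0.183% and 0.426%, 27.3 and 22.9 times less. As a share of themselves plus the MHC class II-high cells, the dendritic-type cells rested at 24.1%, 29.7%, 37.5% and 42.9% in the 4 pools. Both Ccr2-/- values were above both WT values, and the mean difference of 13.3 points had the same exact permutation p of 0.333. As a share of themselves plus the C1q-high cells they made up 39.8% and 30.3% in WT and 85.7% and 81.8% in Ccr2-/- pools.

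**Figure D2:**
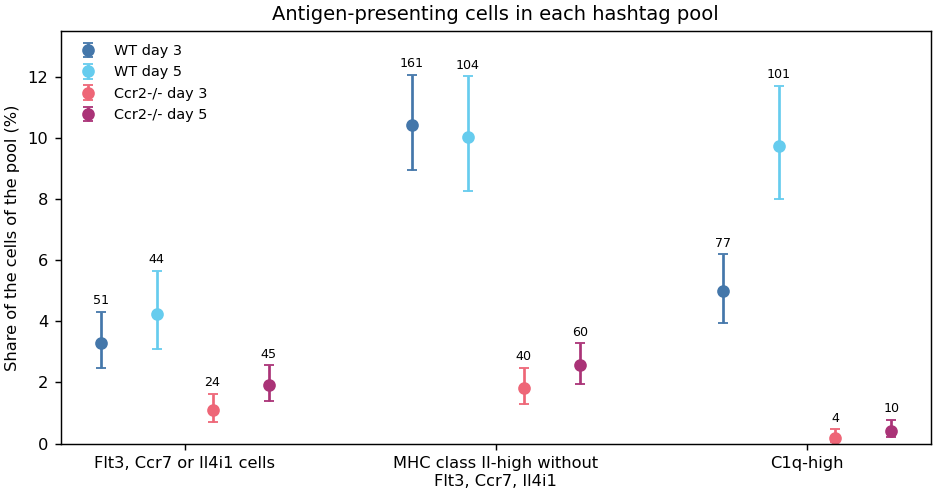
Share of each pool made up by the Flt3, Ccr7 or Il4i1 cells and by the other 2 sets of antigen-presenting cells. Points are percent of the cells of a pool, bars are exact 95% intervals and numbers are cells, and in each set both Ccr2-/- pools sit below both WT pools.

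Counted against all cells of a pool, cDC2-gate cells made up 1.75%, 2.31%, 0.639% and 0.852%, which is 2.74 and 2.72 times less in Ccr2-/- mice on days 3 and 5, with intervals that did not overlap on either day. The cDC1-gate cells, with 0.518%, 1.06%, 0.183% and 0.469%, were 2.84 and 2.26 times less, with overlapping intervals on both days. Langerhans-gate cells, a name for the gate only, came to 0.907%, 0.386%, 0.228% and 0.341%, a ratio of 3.98 on day 3 and 1.13 on day 5, with overlapping intervals on both days. Siglech cells ran to 0.130%, 0.289%, 0.0913% and 0.426%, so that the Ccr2-/- day 5 pool, with 10 cells, was the highest of the 4 and its interval overlapped that of the WT day 5 pool. Cells in the Ccr7 and Fscn1 gate came to 0.389%, 0.193%, 0.228% and 0.0426%, which is 1.70 and 4.53 times less, with overlapping intervals. These gate values had 1 pool per genotype and day and were not tested, and the intervals leave out the spread between mice. Of the 85 cells of the cDC2 gate, 39 were monocyte-macrophage-like, so its shares are not those of cDC2 alone.

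**Figure D3:**
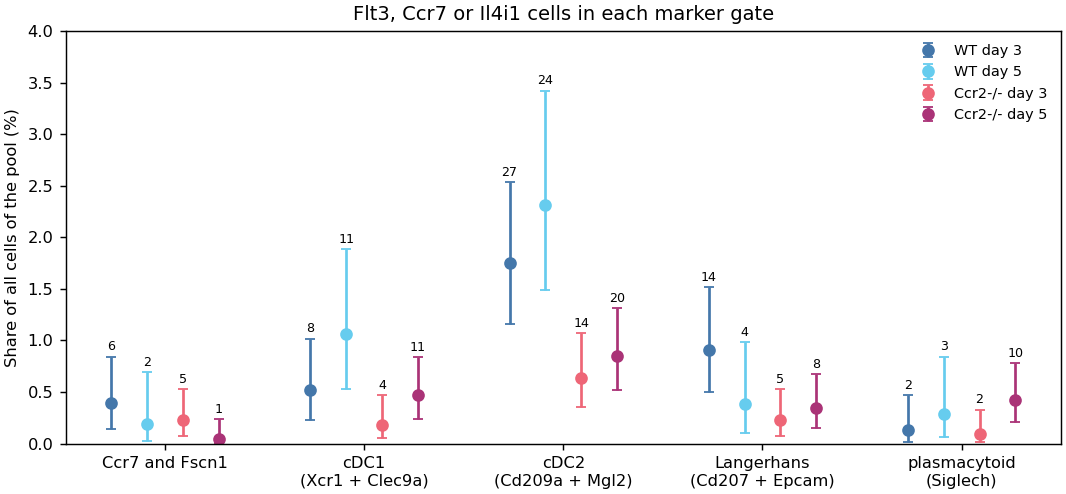
Flt3, Ccr7 or Il4i1 cells inside each marker gate as percent of all cells of the pool. Bars are exact 95% intervals and numbers are cells in the gate, the cDC2 and cDC1 gates are lower in both Ccr2-/- pools, and the Siglech gate holds 2, 3, 2 and 10 cells.

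Mature cells were counted as the share of the 164 cells in the Ccr7 and Fscn1 gate. This share was 11.8% in WT day 3 (6 of 51 cells, exact 95% interval 4.44 to 23.9), 4.55% in WT day 5 (2 of 44, 0.555 to 15.5), 20.8% in Ccr2-/- day 3 (5 of 24, 7.13 to 42.2) and 2.22% in Ccr2-/- day 5 (1 of 45, 0.0562 to 11.8). Both day 3 pools were above both day 5 pools, while the genotypes overlapped. Ccr7 is one of the genes the cells were chosen by, so this share is a description.

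Within WT mice, Ccr2 was uneven among the dendritic-type cells. Of the WT cells in the cDC2 gate, 31 of 51 held Ccr2 at 100 CPM (764 CPM in the summed reads), and of those in the cDC1 gate, 11 of 19 (327 CPM). In the Langerhans gate it was 5 of 18 cells (134 CPM) and in the Siglech gate 2 of 5 (275 CPM). None of the 8 WT cells in the mature gate reached it, and their summed reads held 1 read of Ccr2, 2.36 CPM. By sub-cluster, over all pools, Ccr2 was highest in the monocyte-macrophage-like cells, at 851 CPM and with a read in 36 of 49. It stood at 201 CPM in the cDC1-like, 57.5 CPM in the mature DC-like and 84.0 CPM in the plasmacytoid DC-like cells. In the plasmacytoid DC-like cells 2 of 13 had a read of Ccr2. These sub-cluster levels take in Ccr2-/- cells, so they also depend on how many cells of a sub-cluster carry the deletion. The cDC2 gate held 39 of the 49 monocyte-macrophage-like cells, so its Ccr2 level is not that of cDC2 alone.

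Across the 11572 genes tested, no gene passed an adjusted p of 0.05 between genotypes (0% called) in edgeR's quasi-likelihood test with Benjamini-Hochberg adjustment, with day as a covariate and 1 residual degree of freedom. The smallest adjusted p was 0.086. At an unadjusted p under 0.05 there were 561 genes, 275 higher (2.38%) and 286 lower (2.47%) in Ccr2-/- cells, and DESeq2 called 25 genes, 13 higher and 12 lower. Genes are therefore given by their values, and the words higher and lower below describe these pools. Both Ccr2-/- pools were above both WT pools for 16% of all genes tested and below both for 20.2% (36.2% in either direction), which is the background for the counts that follow. Over all genes the median log2 fold change was -0.03.

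The chemokine genes Ccl17 and Ccl22, whose products draw CCR4-bearing T cells, were among the genes with the smallest p. Ccl17 stood at 5.19 and 7.10 CPM in the WT pools and at 688 and 304 CPM in the Ccr2-/- pools, with a log2 fold change of 6.23 ± 0.49 (SE). It was the higher gene with the smallest adjusted p in the edgeR quasi-likelihood test (0.086, Benjamini-Hochberg), and did not pass. Reads of Ccl17 came from 4, 1, 6 and 3 cells, and 38.2% of all its reads came from 1 cell and 66.8% from 2. Ccl22 stood at 64.4, 6.08, 372 and 54.2 CPM, in 3, 1, 7 and 3 cells, so the genotypes overlapped: WT day 3 lay above Ccr2-/- day 5. Its log2 fold change by genotype was 2.82 ± 0.35 (SE). In Col1a1-high cells both genes were close to absent, at 0.401 and 0.0744 CPM.

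Each gene had a read in 14 of the 164 cells, and 6 cells held both. Of the 14 Ccl22 cells, 8 were in the Ccr7 and Fscn1 gate and 11 in the broader mature DC-like sub-cluster. The 14 Ccl17 cells were split, with 6 in the mature DC-like and 8 in the monocyte-macrophage-like sub-cluster, and the cell with the most Ccl17 reads, from the Ccr2-/- day 5 pool, was of the latter kind. At 100 CPM, 5 cells held both, 4 of them Ccr2-/- day 3 and 1 Ccr2-/- day 5.

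The genes lie near each other on chromosome 8 and their promoters are shown because 6 cells hold both transcripts. The 250 bases before the start of each gene are from RefSeq (GRCm38.p6, plus strand), with capitals at matches to 2 spacings of the letters that STAT factors bind, TTCNNNNGAA (the spacing STAT6 prefers) and TTCNNNGAA, each the same on both strands.
Ccl17 (chr8:94810203-94810452): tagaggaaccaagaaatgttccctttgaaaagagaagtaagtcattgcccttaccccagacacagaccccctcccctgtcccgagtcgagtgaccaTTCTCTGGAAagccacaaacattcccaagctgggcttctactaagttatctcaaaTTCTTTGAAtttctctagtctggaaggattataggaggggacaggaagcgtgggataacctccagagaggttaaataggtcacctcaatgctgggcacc
Ccl22 (chr8:94745434-94745683): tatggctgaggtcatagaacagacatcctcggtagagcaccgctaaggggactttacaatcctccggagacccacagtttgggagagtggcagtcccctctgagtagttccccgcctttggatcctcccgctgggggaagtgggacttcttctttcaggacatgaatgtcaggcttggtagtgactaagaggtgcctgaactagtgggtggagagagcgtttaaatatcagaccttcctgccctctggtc
The Ccl17 window held 1 match to each, at bases -154 to -145 and -99 to -91 before the start, and the Ccl22 window held none. Of 32851 promoters of the same length, 5.85% hold the first and 7.02% the second. The matches describe letters in these windows, and binding was not measured.

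**Figure D4:**
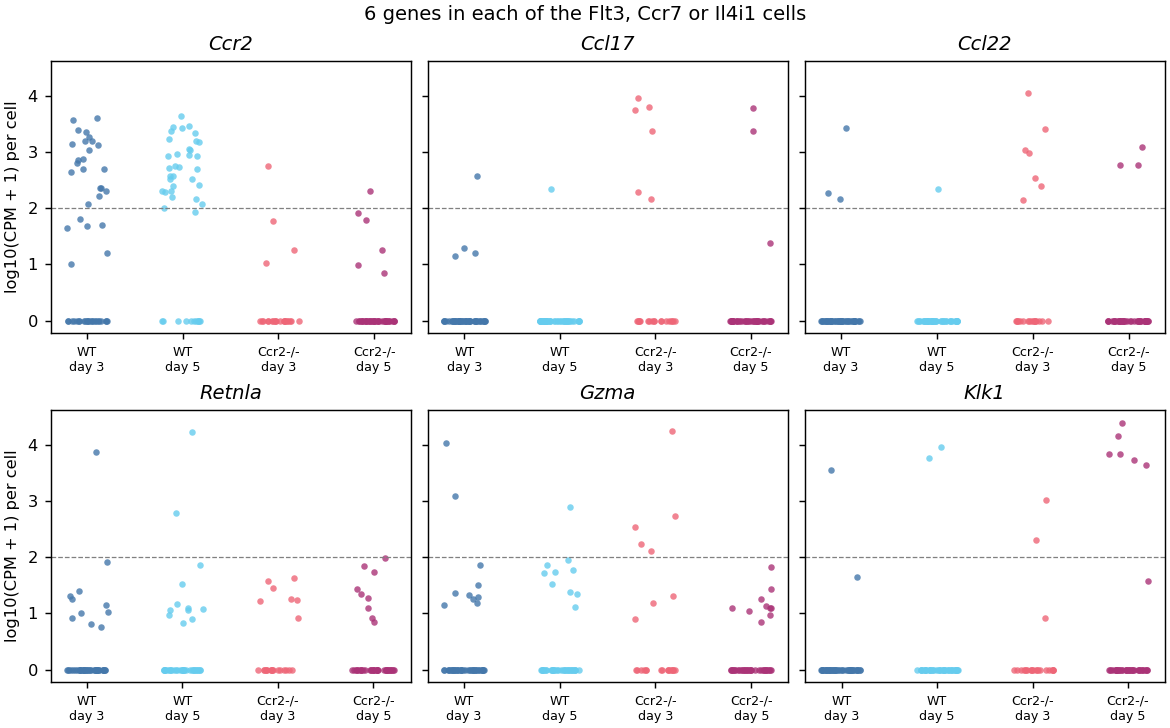
Levels of 6 genes in each of the 164 cells, by pool. Each point is 1 cell on a log10(CPM + 1) axis and the dashed line is 100 CPM; Ccr2 is spread over 52 WT cells, whereas Ccl17, Ccl22, Retnla, Gzma and Klk1 rest on a few cells each.

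Some genes were spread over more cells and were less extreme. Csf2rb, the shared chain of the receptors for GM-CSF, IL-3 and IL-5, stood at 271 and 269 CPM in WT and at 525 and 554 CPM in Ccr2-/- pools, with 25, 28, 18 and 33 cells at 100 CPM and a log2 fold change of 1.02 ± 0.22 (SE). The 2 genotypes did not overlap and the days were close. Cish, a cytokine-signalling inhibitor that STAT5 induces, was at 89.0, 29.4, 308 and 114 CPM (1.89 ± 0.30), and Socs2 of the same family at 116, 92.3, 449 and 182 CPM (1.49 ± 0.33). Slamf9, a SLAM-family surface receptor, was at 102, 52.4, 290 and 323 CPM (2.08 ± 0.37). The elastase gene Mmp12, found in macrophages, was at 30.5, 45.3, 372 and 173 CPM (2.79 ± 0.48), with 64.8% of its reads in 2 cells, and AA467197 at 26.7, 18.6, 386 and 154 CPM (3.48 ± 0.36), with 58.0% in 2 cells. The unnamed transcripts Gm15056 (53.3, 51.0, 2032 and 427 CPM), AC160336.1 (1709, 1382, 3165 and 3771 CPM) and AC109138.2 (1004, 872, 1838 and 2546 CPM) completed the genes higher with the smallest p, together with Gm48704, which had no read in either WT pool and 40.1 and 52.6 CPM in the Ccr2-/- pools. Gm48704 (9.87 ± 1.30) was read in 4 cells, and 1 cell held 84.1% of its Ccr2-/- day 3 and 1 cell 99.3% of its Ccr2-/- day 5 reads. For Gm15056, 45.4% of reads came from 2 cells. For Csf2rb, Cish, Socs2 and Slamf9, both Ccr2-/- pools were above both WT pools, and for Csf2rb no cell held more than 19.1% of a pool's reads.

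Of the 16 genes of the NF-kB list, 5 were higher in both Ccr2-/- pools and 1 (Birc3) was lower, against 16% and 20.2% of all genes, and the list's median log2 fold change was 0.37. Nfkb1, which encodes the p105 precursor of p50, stood at 112, 141, 344 and 322 CPM (1.42 ± 0.27) with 20, 17, 18 and 26 cells at 100 CPM. The kinase gene Map3k14 (NIK) stood at 102, 65.2, 222 and 132 CPM (1.09 ± 0.29). Nfkb2, Relb and the inhibitor gene Tnfaip3 were the other 3, and Nfkbia, at 1036, 1353, 2162 and 1109 CPM, overlapped. All of these had adjusted p of at least 0.972 in the edgeR quasi-likelihood test with Benjamini-Hochberg adjustment.

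Maturation genes were mixed, with 8 of 27 tested higher in both Ccr2-/- pools, 4 lower and a median of 0.48. Cacnb3 (109, 76.4, 175 and 143 CPM), Socs2, Zmynd15, Relb, Ccl17 and the co-signalling genes Cd80, Cd274 (PD-L1) and Cd200 made up the 8. Cd274 stood at 68.2, 98.4, 273 and 103 CPM, in 8, 12, 14 and 11 cells at 100 CPM, so only the Ccr2-/- day 3 pool stood well apart. Cd200 was likewise at 22.8, 21.3, 173 and 23.2 CPM. Fscn1 (190, 77.4, 370 and 73.2 CPM), Samsn1 (365, 310, 582 and 278 CPM), Cd40 (96.9, 48.0, 164 and 73.2 CPM) and Cd83 (223, 322, 398 and 221 CPM) overlapped, in each case with the Ccr2-/- day 3 pool highest. This pool also had the largest share of cells in the mature gate, 20.8%. Among the cells of that gate, which is drawn on Fscn1 of this list and holds 6, 2, 5 and 1 cells, the median had the other sign, -1.16.

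The lists with the largest share of genes lower in both Ccr2-/- pools were cell division (68.8%), interferon (66.7%) and monocyte-macrophage (50%). Of 12 monocyte-macrophage genes, 6 were lower in both Ccr2-/- pools and none higher (median -0.93), among them Ms4a7, Adgre1, Mrc1 and Lyz2, and also Ccr2, whose direction the deletion fixes. Adgre1, which encodes F4/80, came to 47.8, 54.4, 8.91 and 15.5 CPM (-2.07 ± 0.60). Other genes of this kind, taken by their small p, were Clec4a2, an inhibitory lectin receptor (130, 166, 33.1 and 18.6 CPM, -2.54 ± 0.44), and the transcription factor gene Maf (71.3, 120, 14.6 and 11.999 CPM, -2.78 ± 0.50). Clec4a2 reached 100 CPM in 12, 14, 2 and 2 cells. Retnla, a gene of alternative activation, stood at 204, 545, 6.37 and 6.97 CPM (-5.69 ± 0.44, adjusted p 0.086 in edgeR's quasi-likelihood test, not passing), and 95.2% of its reads came from 2 cells, 1 in each WT pool. F13a1, the coagulation factor XIII chain that monocytes make, was at 79.3, 63.5, 1.27 and 3.87 CPM (-4.73 ± 0.75). The part of monocyte-macrophage-like cells in the other lists was not tested.

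Of 12 interferon-response genes that could be tested, 8 were lower in both Ccr2-/- pools and none higher, with a median of -1.72. Ifi44 stood at 126, 83.8, 38.2 and 22.1 CPM (-1.80 ± 0.38) in 10, 6, 2 and 3 cells at 100 CPM. Rsad2, the antiviral enzyme viperin, stood at 48.1, 16.6, 0.637 and 0.774 CPM in 4, 3, 1 and 2 cells with a read. Irf7 (104, 54.1, 48.4 and 37.5 CPM), Isg15, Usp18, Gbp2 and Ifit3 were also among the 8. The interferon-induced chemokine gene Cxcl10 was at 57.8, 47.3, 0.637 and 6.97 CPM. These genes were uneven among the cells: in the monocyte-macrophage-like sub-cluster Rsad2 stood at 50.8 CPM and Cxcl10 at 95.1 CPM, against 5.82 and 6.39 CPM in the other cells, and Rsad2, Ifit2, Ifi44 and Cxcl10 were among the leading genes of the 18 cDC2-like cells of the finer clustering. The part of such cells in the difference between genotypes was not tested.

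Cell division genes were lower in 11 of 16 cases, with Ube2c the 1 exception among those that did not overlap (median -1.29). Pclaf, a PCNA-binding factor of replication, stood at 80.3, 113, 14.6 and 29.0 CPM (-2.17 ± 0.43), Rrm2, a subunit of ribonucleotide reductase, at 134, 56.8, 2.55 and 17.0 CPM, and Mki67 at 111, 93.6, 50.3 and 64.3 CPM. Pclaf reached 100 CPM in 4, 4, 2 and 2 cells, and 1 cell held 49.1%, 61.4%, 34.8% and 53.3% of its reads in the 4 pools. At 100 CPM, Mki67 was held by 7 of 51, 11 of 44, 4 of 24 and 7 of 45 cells, shares that overlapped between genotypes with WT day 3 the lowest. The finer clustering set apart 18 cDC1-like cells led by Rrm2, Stmn1, Pclaf and Top2a, and their part in this difference was not tested. In the sub-clusters, Mki67 was at 136 CPM and Pclaf at 169 CPM in the cDC1-like cells, against 62.1 and 9.53 CPM in the mature DC-like cells. The histone genes Hist1h2ap and Hist1h2ao were also lower, but their copies are nearly identical and reads may have been split between them. In WT day 3, 1 cell held 60.8% of the Hist1h2ap reads.

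**Figure D5:**
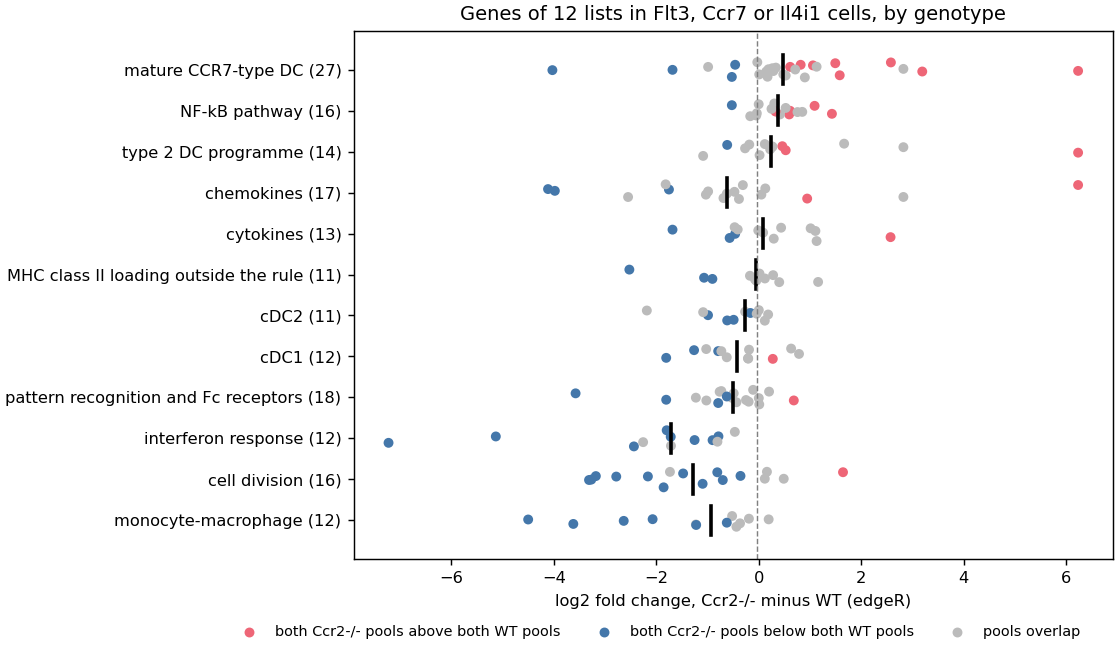
log2 fold change of Ccr2-/- over WT for the genes of 12 lists in the Flt3, Ccr7 or Il4i1 cells. Points are genes (chosen-on genes left out), coloured where both Ccr2-/- pools lay above or below both WT pools, black bars are list medians, and the dashed line is the median of all genes tested (-0.03); the interferon, cell division and monocyte-macrophage lists lie to the left.

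Of 8 dendritic lineage genes, Csf2rb and Zbtb46 were higher and Id2 was lower (median -0.06). In the cDC1 list 1 of 12 genes was higher and 3 lower (median -0.42), with Naaa at 1812, 1505, 649 and 1346 CPM and Irf8, which overlapped, at 985, 1055, 543 and 1411 CPM. In the cDC2 list none of 11 was higher and 4 were lower (median -0.27), among them Klf4, a transcription factor of the type 2 branch (642, 657, 390 and 444 CPM, -0.62 ± 0.21). Cd209a, at 535, 360, 478 and 389 CPM, and Mgl2, at 426, 878, 886 and 480 CPM, overlapped. Among the plasmacytoid genes 2 of 7 were higher and none lower (median 0.56), Tcf4 (268, 310.6, 419 and 518 CPM, 0.72 ± 0.22) and Bst2 (113, 87.9, 146 and 161 CPM).

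H2-DMa stood at 664, 631, 654 and 728 CPM (0.12 ± 0.20), the class II transactivator gene Ciita at 357, 258, 285 and 318 CPM (0.01 ± 0.27) and the protease gene Ctss at 940, 1306, 896 and 1041 CPM (-0.17 ± 0.18). The list had 0 genes higher and 3 lower among 11 tested, with a median of -0.05. These were the protease gene Lgmn (220, 324, 202 and 77.0 CPM, -1.07 ± 0.49), H2-Ob (-0.91 ± 0.70) and the class II promoter factor gene Rfx5 (36.0, 27.4, 14.6 and 1.55 CPM, -2.53 ± 0.996), and H2-Oa, at 12.5, 3.04, 5.73 and 31.4 CPM, overlapped. Of 12 ligands of T cell co-signalling, 3 were higher and 2 lower. Cd86 (117, 54.4, 63.7 and 97.2 CPM) and Pdcd1lg2 (72.0, 74.4, 117 and 63.5 CPM) overlapped.

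Cytokine genes gave 1 higher, Tnf, and 3 lower among 13 tested. Tnf stood at 18.7, 9.46, 71.3 and 86.3 CPM (2.57 ± 0.56) in 11, 6, 4 and 9 cells with a read, and 1 cell held 92.9% of its reads in the Ccr2-/- day 3 pool. Il1b, at 983, 1425, 1667 and 1214 CPM, overlapped, and reached 100 CPM in 28, 29, 11 and 25 cells. Il12b, which encodes the p40 chain of IL-12 and IL-23, was read in 2 cells of the 164, 1 in each day 5 pool. Of 17 chemokine genes, 2 were higher (Ccl17 and Ccl4, the latter at 98.0, 184, 230 and 281 CPM) and 3 lower (Ccl9, Ccl12 and Cxcl10), with a median of -0.63.

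Receptors of type 2 and alarmin signals were read in all pools. The type 2 list had 3 of 14 genes higher (Il13ra1, Il7r and Ccl17) and 1 lower (Klf4), with a median of 0.24. Crlf2, a chain of the receptor for the alarmin TSLP, stood at 80.7, 103, 118 and 92.1 CPM, and its partner Il7r at 155, 178, 217 and 254 CPM (0.52 ± 0.26). Il4ra was at 123, 107, 136 and 63.9 CPM. Of 13 migration receptors tested, 2 were higher and 4 lower, the deleted Ccr2 being 1 of the 4, and Gpr183, the oxysterol receptor that positions dendritic cells, overlapped at 381, 293, 479 and 328 CPM. Of 18 pattern recognition and Fc receptor genes 1 was higher and 4 were lower. Fcer1a, the ligand-binding chain of the high-affinity IgE receptor, was read in 1, 3, 0 and 1 cells, and Fcgr2b, the inhibitory IgG receptor, in 40, 37, 19 and 29. In the tolerance list, 7 of 12 genes could be tested and 2 were higher, Socs3 and the galectin gene Lgals1, while Aldh1a2, the retinoic acid enzyme of gut dendritic cells, was read in 1 cell of each pool and Ido1 in 1 cell in all.

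Between days 3 and 5, no gene passed either in the same edgeR fit (0% called, smallest Benjamini-Hochberg adjusted p 0.0658). At an unadjusted p under 0.05 there were 186 genes higher (1.61%) and 222 lower (1.92%) at day 5, and DESeq2 called 13 genes, 1 of them higher. Both day 5 pools were above both day 3 pools for 16.9% of all genes and below both for 15.5% (32.4% in either direction). The median over all genes was 0.03.

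Of 27 maturation genes, 5 had both day 5 pools below both day 3 pools and 1 had both above (median -0.32). Fscn1 was among the 5. It went from 190 to 77.4 CPM in WT and from 370 to 73.2 CPM in Ccr2-/- cells, a log2 fold change of -1.82 ± 0.35 (SE), with 7, 3, 5 and 5 cells at 100 CPM. Ccl22 had -3.05 ± 0.36, from 64.4 to 6.08 CPM in WT and from 372 to 54.2 CPM in Ccr2-/- cells. Of 17 chemokine genes, 6 had both day 5 pools below both day 3 pools and none had both above (median -0.86). Among the 6 were the eotaxin gene Ccl24 (169, 60.8, 90.4 and 7.74 CPM, -2.41 ± 0.57) and Ccl5. Among cells outside the Ccr7 and Fscn1 gate the differences by day had the other sign, 0.68 for Ccl22 and 1.51 for Fscn1, and neither passed. The share of cells in that gate was itself higher on day 3, and cells with Fscn1 had been used to draw it.

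Of 7 plasmacytoid genes, 3 had both day 5 pools above both day 3 pools and none had both below (median 0.26). Klk1, a kallikrein gene that led the plasmacytoid DC-like sub-cluster, stood at 35.3, 257, 24.8 and 680 CPM (3.78 ± 0.52) and was read in 2, 2, 3 and 7 cells, while Siglech stood at 71.0, 88.2, 28.0 and 214 CPM in 5, 4, 3 and 10 cells. Dpp4 (CD26), a surface peptidase of dendritic cells, was more widely spread, with 74.8, 173, 29.3 and 104 CPM (1.505 ± 0.36) and 11, 22, 3 and 14 cells at 100 CPM. Of the 12 cDC1 genes, 3 had both day 5 pools above both day 3 pools and none had both below (median 0.75). The 3 were Clec9a (28.0, 82.5, 36.9 and 46.1 CPM), Irf8 and Ppt1. The lysosomal genes Plbd1 (901, 1409, 556 and 1057 CPM, 0.79 ± 0.19) and Gm2a (615, 1011, 260 and 536 CPM, 0.88 ± 0.21) were read in many cells, with Gm2a at 100 CPM in 40, 37, 14 and 25 cells, and Gm2a was also lower in the Ccr2-/- pool of each day (-1.05 ± 0.21 by genotype).

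Other genes among the 20 with the smallest p by day were of mixed function. Timp3 (57.1, 3.72, 183 and 17.0 CPM), Ly6a (279, 35.2, 177 and 34.8 CPM), the endothelial gene Plvap (94.8, 4.73, 20.4 and 2.71 CPM), the eosinophil-type ribonuclease gene Rnase2a (208, 54.1, 224 and 92.5 CPM) and Cish were lower on day 5. Except for Cish, 1 cell held much of the day 3 reads of a pool. In WT and Ccr2-/- its share was 75.8% and 96.5% for Timp3 and 83.6% and 82.7% for Ly6a. It was 97.8% and 40.6% for Plvap, 77.7% and 84.7% for Rnase2a, and 28.4% and 16.3% for Cish. The fatty acid binding protein gene Fabp5 was at 614, 267, 1753 and 329 CPM (-1.81 ± 0.32), with 65.9% of its WT and 37.3% of its Ccr2-/- day 3 reads in 1 cell. Stom (39.8, 142, 14.0 and 60.8 CPM), Nsmce1 (15.2, 71.0, 24.2 and 93.3 CPM), Calcoco1 (14.9, 93.0, 12.7 and 46.4 CPM), Atmin (7.27, 55.8, 1.27 and 20.5 CPM), Ifitm1 (287, 489, 145 and 483 CPM) and Gm42047 were higher, with Stom at 100 CPM in 7, 16, 1 and 7 cells.

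Markers of other cell types also differed by day. Of the genes tested, both day 5 pools lay below both day 3 pools for 4 of 5 natural killer and innate lymphoid genes. The same held for 6 of 8 neutrophil, 3 of 4 endothelial and mural, 2 of 3 keratinocyte and 3 of 10 fibroblast genes. Both day 5 pools lay above both day 3 pools for 3 of 5 basophil and mast cell genes. The part of these markers of other cell types in the maturation and chemokine values by day was not tested. Granzyme reads on day 3 came mostly from 3 cells. Gzmb, the gene with the smallest p by day (adjusted p 0.0658 in edgeR's quasi-likelihood test), stood at 304, 2.70, 206 and 3.10 CPM, and 97.6% of its reads came from 2 cells. Gzma stood at 404, 16.2, 1445 and 4.26 CPM, with 95.3% of its reads in 2 cells. The 3 cells with at least 1000 CPM of Gzma were 2 of WT day 3 and 1 of Ccr2-/- day 3. They had entered through Il4i1 (4086 and 1495 CPM in 2 of them) or Flt3 (287 CPM). The natural killer genes Nkg7 and Prf1 stood at 947 and 813 CPM in the WT cell with 10852.5 CPM of Gzma. Both genes were also read in the Ccr2-/- cell, at 159 and 135 CPM, and were at 0 in the WT cell with 1253 CPM of Gzma. None of the 3 cells had a read of the T cell genes Cd3e and Trac. Those T cell genes were almost absent from all dendritic-type cells, so this does not set the 3 apart. The type of these 3 cells was not tested. The part of these cells in the other results was not tested.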

How the data were processed

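Single-cell RNA of 4 hashtag-marked pools was sequenced with TAS-Seq in 1 library. The authors trimmed reads with cutadapt, mapped them with Bowtie2 to mouse RNA of GRCm38.p6 and deposited a table of read counts per gene and barcode, together with a table of hashtag counts; counts are reads, since the method as deposited keeps no molecule number. The 4 hashtags of the pools were used, and 9 other hashtag columns were not.

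From these counts, barcodes with at most 20% mitochondrial reads and at least 200 genes were kept, and a pool was assigned where its hashtag, scaled by hashtag totals, was 3 times the next with at least 10 hashtag reads. Barcodes with several hashtags (529) were left out as doublets, and no doublet caller was run. Expression limits were applied to CPM of each cell, and cells with no hashtag call were not used. The members and gene lists were chosen with earlier results of these data known.

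Cells were clustered with scanpy 1.11.5 and leidenalg 0.10.2 (1000 variable genes, 15 components, 15 neighbours, resolution 0.5). The limits by which a sub-cluster was named from its markers were set after the data were seen. Counts of the cells were summed per pool and tested in edgeR 4.0.16 (TMM, filterByExpr, quasi-likelihood test, additive in day and genotype, 11572 genes, R 4.3.3), with Benjamini-Hochberg adjustment and a threshold of 0.05. The model leaves 1 residual degree of freedom and the common biological coefficient of variation was 53.7%. SE is the log2 fold change divided by the square root of F. Shares were compared by exact permutation of pools, and intervals are Clopper-Pearson at 95%. DESeq2 1.42.0 and other limits were tried as alternatives.

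Named genes were the genes of the choice, Ccr2, examples of each list by level or fold change, the 10 higher and 10 lower genes with the smallest p in each comparison where none passed, with at least 20 CPM in the mean of pools, and the 20 genes with the largest ratio over the MHC class II-high cells. Promoters are from RefSeq (GRCm38.p6). A few genes of the lists are not reported here by name.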

Additional observations from a re-analysis of the deposited data

Results flagged for a closer look

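Within the dendritic-type cells, the share in a marker gate differed between genotypes in opposite directions on the 2 days for 4 of the 5 gates. With 1 pool per genotype and day, the difference between days was not tested. The Ccr2-/- share minus the WT share of the Ccr7 and Fscn1 gate was 9.07 points on day 3 and -2.32 points on day 5. It was 0.980 and -0.556 points for the cDC1 gate, 5.39 and -10.1 points for the cDC2 gate, and -6.62 and 8.69 points for the Langerhans gate. The gates held between 1 and 27 cells of a pool, and the exact 95% intervals of the shares overlapped between genotypes on each day.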

How the results depend on the processing

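The lower share of the dendritic-type cells in Ccr2-/- pools kept its direction under the other limits on expression, hashtags and depth and with CD45+ cells as denominator, with differences from -3.29 to -1.83 points. The share of cells in the Ccr7 and Fscn1 gate stayed higher in the Ccr2-/- mean, by 1.36 to 4.75 points. The finer clustering gave 8 sub-clusters.

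The number of genes passing by genotype was 2 with a hashtag ratio of 10, 2 within the Ccr7 and Fscn1 gate (pools of 6, 2, 5 and 1 cells), 2 with library sizes in place of TMM, 13 with no filter on low counts and 25 with DESeq2. By day it was 1 with cells of at least 10000 reads, 1 at 200 CPM of the 3 genes, 27 within that gate, 1 with library sizes, 7 with no filter, 1 without genotype in the model and 13 with DESeq2. DESeq2 passed 24 of the 40 named results. The cause was not tested. Within the gate the genotype differences of AC109138.2 (-0.24), AC160336.1 (-0.38) and Slamf9 (-2.24) and the day difference of Dpp4 (-0.24) changed sign, and outside it the day differences of Ccl22 (0.68) and Fscn1 (1.51) did. The median of the NF-kB list by genotype ran from -2.02 within the gate to 0.51, while the interferon (-2.31 to -0.83) and cell division (-1.38 to -0.83) lists stayed below 0. With no filter, the median of all genes was -0.11.

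Hashtag totals over the whole file were an alternative chosen after seeing the data and changed no call. No fit left out a pool, since that leaves no residual degrees of freedom. Day was a term of the model by genotype, and the pools carry no replicate number, so no other pairing was fitted.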
